A study of Caenorhabditis elegans with 45 samples.

Results

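The col genes of Caenorhabditis elegans are the genes whose WBcel235 symbol starts with "col-", most of which encode small collagens of the cuticle. The gene annotation and the transcript tables gave 156 of them among 19982 genes with a quantified transcript, on chromosomes I (21), II (24), III (12), IV (41), V (31) and X (27). Whole adult hermaphrodites of 15 groups were measured by RNA sequencing with 3 libraries a group, 45 in all. Parental groups were selfed animals of the laboratory strain N2 and of 7 wild strains (CB4856, DL238, ECA701, ECA722, EG4348, QX1211 and XZ1516). The 7 F1 groups came from wild males mated to N2 mothers that carried a fog-2 mutation, which removes their own sperm, and their genotype label is wildtype. All groups were synchronised by bleaching and larval arrest, males were taken off the plates, and animals were harvested as gravid adults on day 1. Polyadenylated RNA was sequenced with a directional kit. Extraction ran in 3 batches, each with a replicate of every strain, and the labels do not say which replicate was in which batch.

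The cuticle is an extracellular coat that the hypodermis makes anew at each molt, mainly from collagens that are hydroxylated, trimerised, cleaved and cross-linked. Different collagens are made at different molts and at different times within a molt, and a set is switched on in the adult. Mutations in a minority of cuticle collagens, named dpy, rol, sqt, bli or lon, change body shape, while most col genes have no known mutant phenotype. col-99 is a transmembrane collagen of neurons and other cells and carries the same symbol.

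The parental N2 libraries have a strain label, CB4108, and a genotype label that name the fog-2 mutation, while the growth description has N2 selfed. fog-2 stood at 39.3 to 47.6 TPM (a transcript level scaled by transcript length and library total) in these libraries, at 34.1 to 51.6 TPM in the wild parental libraries and at 21.9 to 32.7 TPM in the F1 libraries. Whether the libraries labelled N2 carried the mutation was not tested, and every direction given against N2 is relative to the libraries so labelled. Libraries held 24.5 to 90.5 M estimated counts (M, 1e6 counts), with a median of 63.6 M, and p-values measure only the spread between these samples. The log levels of the col genes correlated between replicates of a group with r of 0.959 to 0.999. The ECA701 parental replicate 1 stood apart from its 2 partners in the weakly expressed col genes. Several ECA701 counts and medians are given with and without it, and the rest with all libraries only. The XZ1516 F1 libraries stood apart from the other F1 libraries in the same genes. Of the 156 genes, 37 shared over 10% of their fragments with other genes and 23 shared over 50%, and their single values are uncertain. In whole animals, fewer cells of a type and less RNA per cell cannot be told apart.

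A few col genes held most of the collagen RNA. Over the 45 libraries 15 genes averaged over 1000 TPM, and 12 lay between 100 and 1000, 13 between 10 and 100, 47 between 1 and 10 and 69 under 1 TPM. The 15 strongest held 80.1% to 88.9% of the summed col level of a library. The highest mean levels were 4042 TPM for col-119, 3134 for col-140, 2443 for col-20, 2390 for col-122, 2344 for col-124, 2100 for col-181 and 2041 for col-178. col-19, the classic marker of the adult cuticle, averaged 1685 TPM, col-93 averaged 1655, col-80 1427, col-101 1360 and col-106 1299. No col gene was at 0 in every library, and 105 of the 156 have 3 exons or fewer.

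Summed over all 156 genes, the col RNA made up 3.80% to 4.57% of the library's TPM in the N2 libraries, 2.65% to 4.51% in the wild parental libraries and 2.26% to 3.92% in the F1 libraries. The lowest parental mean was that of ECA701, 2.80% ± 0.19 (SD, n = 3), against 4.07% ± 0.43 (SD, n = 3) in N2, and the 2 groups did not overlap. The lowest F1 mean was that of the ECA701 cross, 2.60% ± 0.34 (SD, n = 3). The 5 strongest genes took 38.6% of the col sum in N2 and 50.2% in ECA722, the lowest and highest group means.

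**Figure D1:**
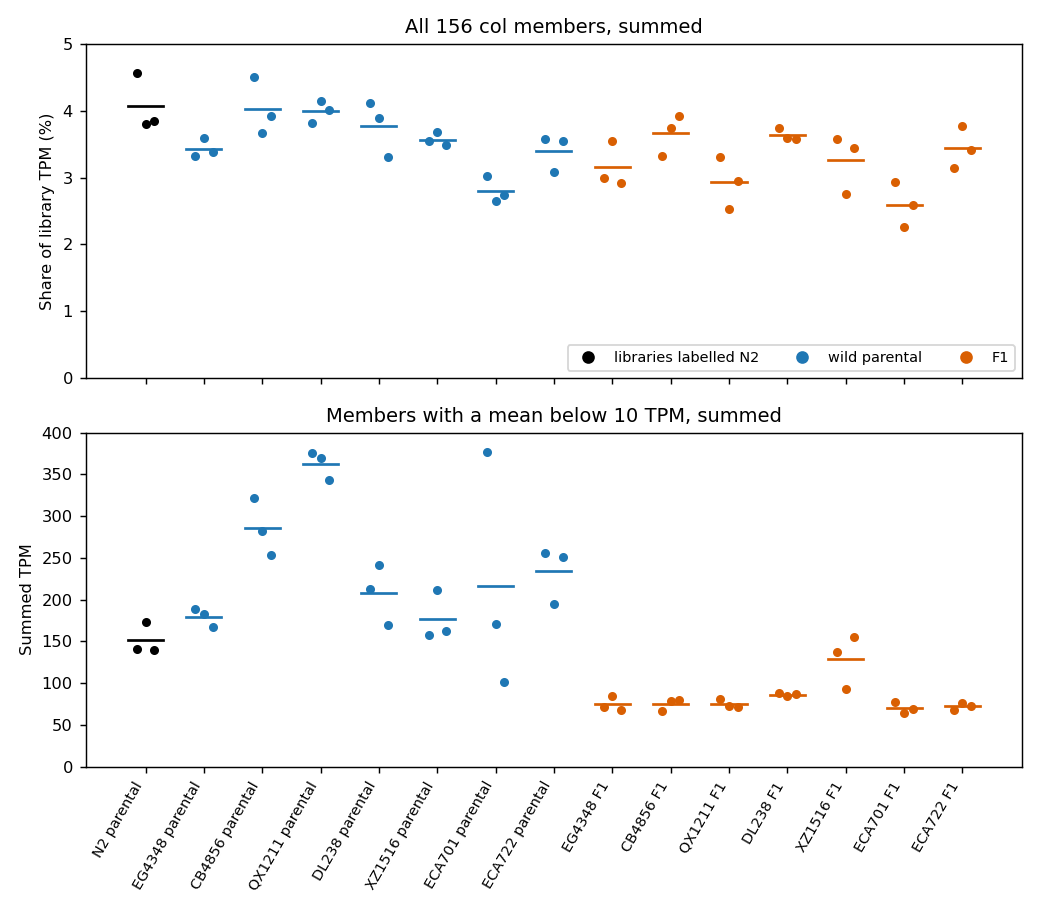
Summed level of the col genes in each of the 45 libraries, with bars at group means. The upper panel gives all 156 genes as a percentage of the library's TPM, and the lower panel gives the summed TPM of the members whose mean is under 10 TPM, where the F1 libraries lie between 64.1 and 155.5 TPM and the wild parental ones between 101.0 and 376.9 TPM.

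Many col genes lie side by side. X:6323488-6335221 holds col-167 to col-171, III:10982139-10987873 holds col-92, col-93 and col-94, V:6829704-6836704 holds col-141, col-142 and col-143, V:9159586-9165307 holds col-10, col-144 and col-145, and II:10703613-10708287 holds col-39, col-79 and col-80 (WBcel235). Neighbours did not share one level: col-39 averaged 18.4 TPM and col-80 averaged 1427 TPM, and the N2 means of col-142 and col-143 differed as described below. Coordinates follow WBcel235, the assembly that is also named ce11.

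Tests could be made on 125 of the 156 members, among 16444 genes that passed a filter on low counts. The 31 members left out averaged at most 0.0545 TPM and reached at most 0.416 TPM in a library. The 8 parental strains differed in 112 of the 125 members (edgeR's quasi-likelihood F test, Benjamini-Hochberg adjusted p under 0.05), which is 89.6% against a background of 88.1% of all genes tested, so the share called was near that of all genes.

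The 7 comparisons of a wild strain with N2 share the N2 libraries, and each is given on its own. Against N2, EG4348 had 22 members higher and 24 lower (backgrounds 19.2% and 15.5% of all genes), CB4856 55 and 10 (18.2% and 13.4%), QX1211 60 and 20 (21.4% and 23.8%) and DL238 34 and 14 (18.6% and 17.3%). XZ1516 had 24 higher and 28 lower (22.6% and 22.6%), ECA701 36 and 42 (27.7% and 24.8%) and ECA722 46 and 24 (22.3% and 19.1%). The median log2 difference of the 125 members was 0.83 in QX1211, 0.75 in CB4856, 0.48 in ECA722, 0.34 in DL238, 0.26 in ECA701, 0.10 in EG4348 and -0.03 in XZ1516, while the median of all genes lay between -0.01 and 0.03. Without ECA701 replicate 1 the ECA701 median was -0.29, so its direction rests on that library. Leaving out 1 library moved some of these counts: the 36 higher in ECA701 became 15 without its replicate 1, the 34 higher in DL238 became 22 without its replicate 2, and the 14 lower there became 9 without DL238 replicate 3 or N2 replicate 1.

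**Figure D2:**
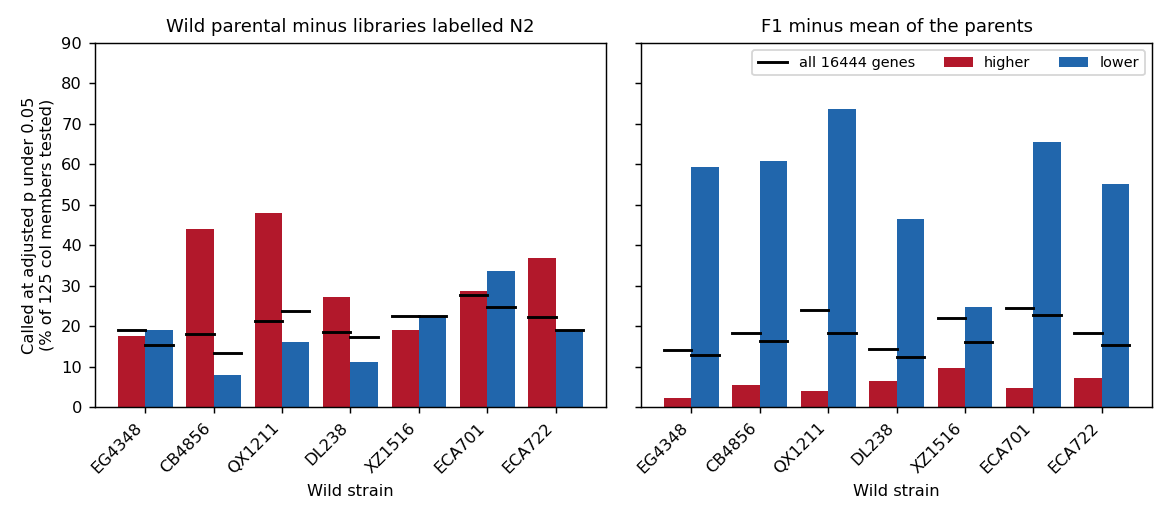
Share of the 125 tested col members called higher or lower in each comparison (bars, percent), with the share over all 16444 genes as a black line. In the wild strains bars lie on both sides of the line, and in the F1 comparisons the bars for lower members reach 24.8% to 73.6% while those for higher members stay under 10%.

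The strong and the weak members went different ways in some strains. In ECA701 all 15 members over 1000 TPM were lower than in N2, with a median log2 difference of -0.49, and 11 of the 12 between 100 and 1000 TPM were lower, with a median of -1.43. In ECA722 11 of the 15 strongest were lower and 2 were higher. Of the 47 members between 1 and 10 TPM, 33 were higher and 5 lower in QX1211, 28 and 3 in CB4856, 21 and 8 in ECA701 and 20 and 4 in ECA722. Without ECA701 replicate 1 the ECA701 counts of this class were 8 and 8, with a median log2 difference of 0.21 in place of 0.95, while in the 2 strongest classes 15 of 15 and 11 of 12 were still lower. The summed level of members under 10 TPM was 343.2 to 375.0 TPM in QX1211 and 253.2 to 321.4 TPM in CB4856, against 139.9 to 173.3 TPM in N2. In ECA701 the same sum was 376.9, 171.2 and 101.0 TPM in replicates 1, 2 and 3, so that replicate 1 was far above N2 and replicate 3 below it.

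**Figure D3:**
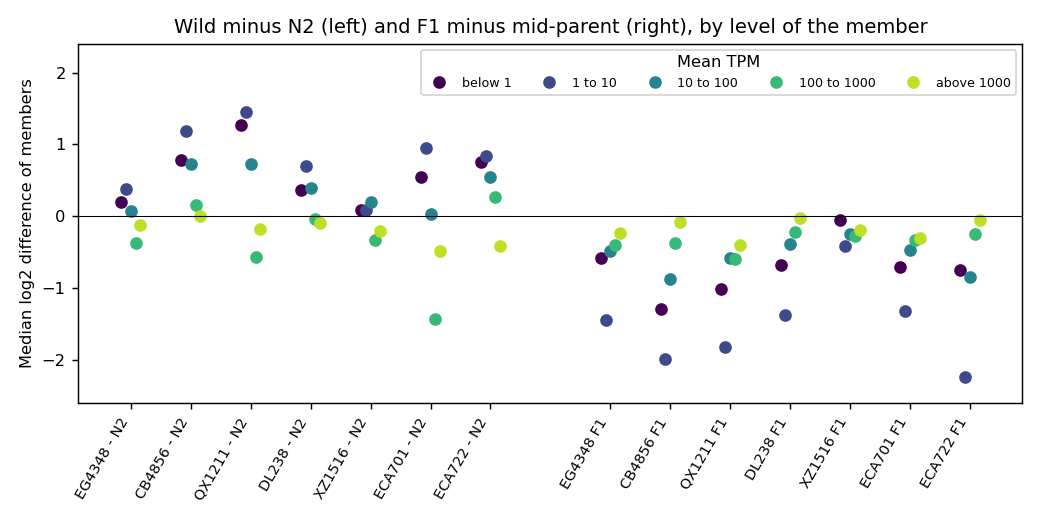
Median log2 difference of the col members in each class of mean TPM, for every wild strain against N2 and every F1 against its mid-parent value. In ECA701 the class of 100 to 1000 TPM lies at -1.43 and the class of 1 to 10 TPM at 0.95, which becomes 0.21 without ECA701 parental replicate 1.

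col-19 (X:421707-422691, + strand), which lies downstream of the factor LIN-29, was called lower than N2 in 2 strains, ECA722 and ECA701, and higher in 2. col-19 lay far below N2 only in ECA722, and its ECA701 log2 difference without ECA701 replicate 1 was -0.37. It stood at 2193, 1879 and 1904 TPM in N2 and at 239.5, 212 and 239 TPM in ECA722, a log2 difference of -3.13 ± 0.08 (SE; edgeR's quasi-likelihood test, Benjamini-Hochberg adjusted p = 1.09e-27). The libraries of the other 6 wild strains held 1589 to 2663 TPM and thus lay far above those of ECA722. col-7, which is also an adult collagen, shares 88.3% of its fragments with col-62, and their sum was higher in ECA722 by 1.19 on the log2 scale.

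col-135 (IV:15129655-15131797, - strand) was called higher than N2 in 4 wild strains, among them EG4348, and lower in 2, among them ECA701. It stood at 32.4, 32.2 and 29.2 TPM in N2, at 107.6, 120.7 and 111.8 TPM in EG4348 and at 2.72, 2.80 and 2.68 TPM in ECA701. The log2 differences were 1.92 ± 0.08 and -3.58 ± 0.09 (SE; edgeR's quasi-likelihood test, Benjamini-Hochberg adjusted p = 4.70e-22 and 2.45e-28). None of the 3 groups overlapped.

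The neighbours col-142 (V:6831177-6832256, + strand) and col-143 (V:6835635-6836704, + strand) differed in which strains were high. col-142 stood at 216.1, 177.1 and 179.1 TPM in N2, at 453.8 to 476.9 TPM in EG4348 (log2 difference 1.35), 407.8 to 460.6 in CB4856 (1.23), 578.9 to 620.6 in QX1211 (1.57), 340.0 to 390.5 in DL238 (0.95) and 313.3 to 316.7 in XZ1516 (0.76). These 5 strains lay above all N2 libraries, each with a standard error of 0.07 and called by the same test. ECA722 was higher by 0.22 with kallisto counts and by 1.00 with allele-aware totals (the estimated counts of the N2 and the wild allele of a gene, added), while ECA701 was lower by 0.29 with the former and not called with the latter (log2 difference -0.07).

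col-143 stood at 1214, 966 and 986 TPM in N2 and at 42.6, 44.4 and 43.5 TPM in EG4348. The log2 difference was -4.55 ± 0.10 (SE) with kallisto counts and -3.35 with allele-aware totals, so the direction held and the size did not. In QX1211 and XZ1516 the kallisto differences of -1.20 and -1.0 turned to 0.23 and 0.22 with allele-aware totals. In these 2 strains no direction is given for col-143.

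col-40 (II:1104942-1106964, - strand), a collagen known from the dauer larva, stood at 0.236, 0.158 and 0.0993 TPM in N2, at 8.17, 9.95 and 10.7 TPM in QX1211, at 14.8, 14.3 and 12.0 TPM in XZ1516 and at 7.02, 5.04 and 6.62 TPM in ECA722. The other 4 wild strains reached at most 0.531 TPM, so the strains fell into a high and a low set that did not overlap. The log2 differences were 5.86 ± 0.40, 6.48 ± 0.41 and 5.30 ± 0.40 (SE; edgeR's quasi-likelihood test, Benjamini-Hochberg adjusted p = 5.04e-15, 2.78e-16 and 7.23e-14). The other dauer collagen, col-2, averaged 0.0924 TPM and was called in no strain and no cross.

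col-165 (X:4353618-4354852, + strand) was present in ECA722 at 1.98, 1.92 and 2.23 TPM and reached at most 0.0457 TPM in any other parental library (edgeR's quasi-likelihood test against N2, Benjamini-Hochberg adjusted p = 4.07e-08). col-121 stood in DL238 at 2.80, 1.36 and 0.732 TPM, a wide spread, against 0.0203 to 0.0908 TPM in N2, a log2 difference of 4.83 ± 0.75 (SE). col-110 stood at 2.97 to 4.01 TPM in EG4348 and 0.730 to 0.906 TPM in N2, a log2 difference of 2.22 ± 0.34 (SE), and was higher in DL238 by 2.57. Of the members lowest against N2, col-43 stood at 0.499 to 0.596 TPM in CB4856 against 1.69 to 2.20 TPM, a log2 difference of -1.77 ± 0.26 (SE). These levels are low.

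**Figure D4:**
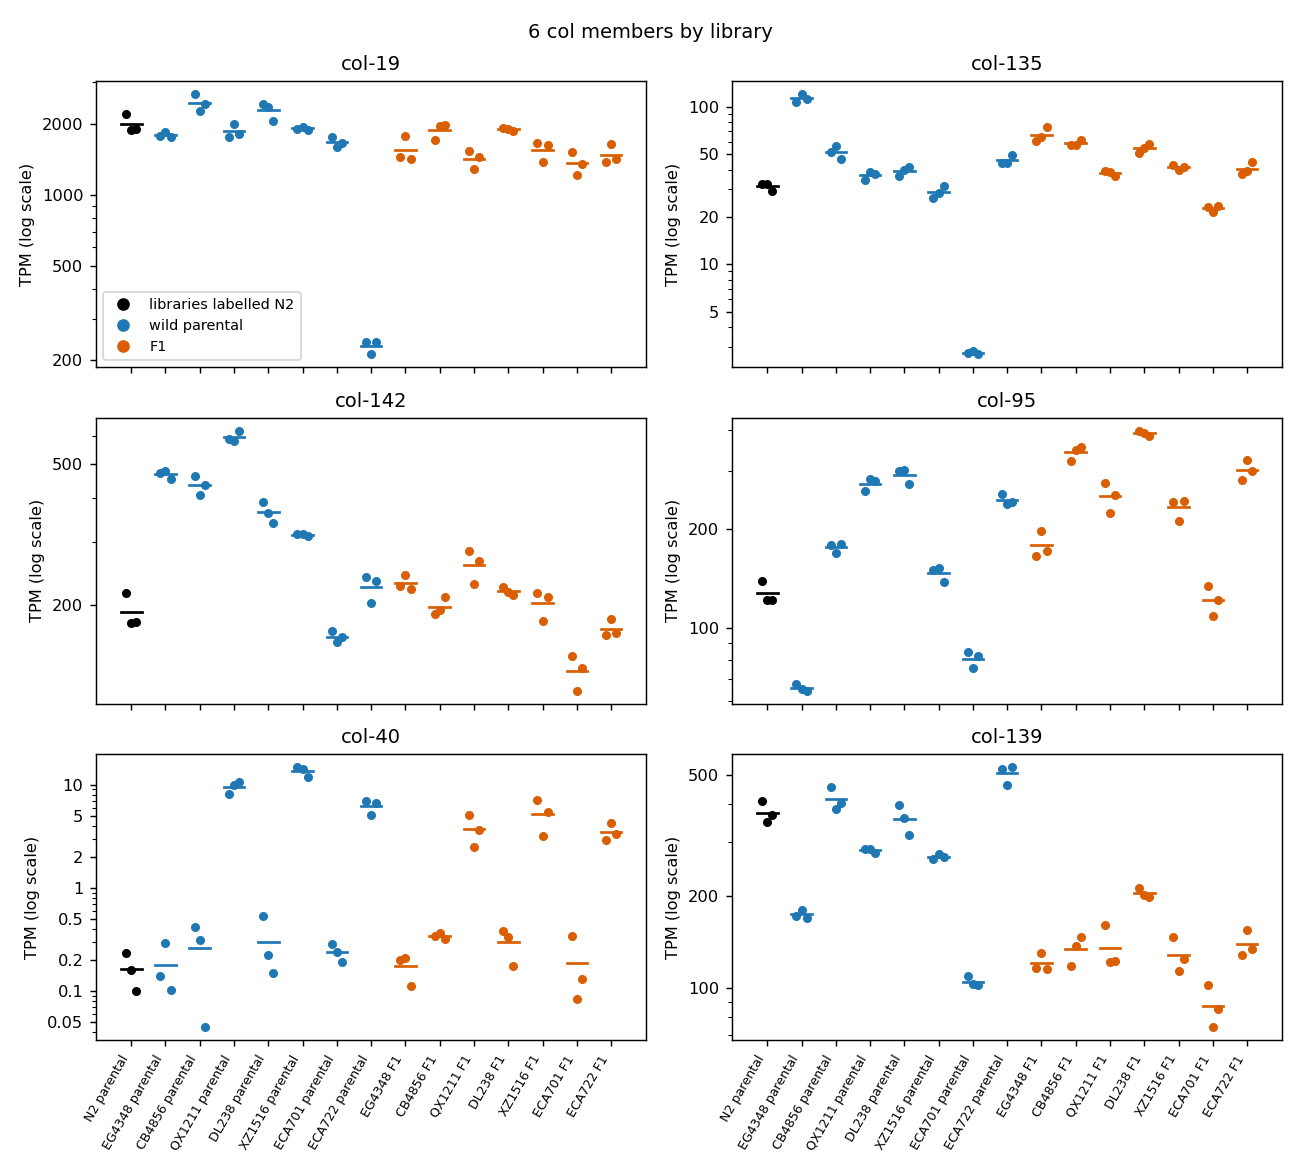
TPM of 6 col members in each of the 45 libraries on a log axis, with bars at group means, for the libraries labelled N2 (black), wild parental libraries (blue) and F1 libraries (orange); libraries at 0 are not drawn. col-19 drops in ECA722, col-135 in ECA701, and col-40 splits the groups into a high and a low set.

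By the naming rule of the methods, members called in 1 direction in at least 6 of the 7 strains are given by name. Higher were col-10, col-17, col-39, col-71, col-83, col-94, col-107, col-142, col-154 and col-166 (10 of 125, background 5.19%), and lower were col-42, col-92, col-98, col-103 and col-158 (5 of 125, background 4.23%). Of these, col-10, col-17, col-92, col-94 and col-154 share over 50% of their fragments with a near copy and are uncertain one by one. With allele-aware totals col-10 and col-166 were called higher in 5 strains and col-94 in 2, and col-92 was called lower in 2. Some calls were lost under an alternative, among them those of col-83 in QX1211, XZ1516 and ECA722 and of col-166 in XZ1516. col-83 stood at only 0.0223 to 0.152 TPM in N2. Since all these comparisons use the same N2 libraries, an unusual N2 value enters each of them. There were 13 members called in no strain (background 13.4%) and 35 called higher in some strains and lower in others (background 23.5%), shares of 10.4% and 28%. Without ECA701 parental replicate 1, col-157 joined the higher list, which then held 11 members (background 4.3%). In that setting 11 members were called in no strain (background 15%).

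col-39 (II:10704916-10706019, + strand) stood at 7.10, 7.27 and 8.16 TPM in N2 and at 82.1, 74.1 and 88.3 TPM in ECA722, with 34.5 to 41.3 TPM in XZ1516. Its log2 difference was 3.42 ± 0.14 (SE) in ECA722 (edgeR's quasi-likelihood test, Benjamini-Hochberg adjusted p = 3.57e-22) and 2.34 ± 0.13 in XZ1516, and in EG4348 it was 0.07 and not called. col-71 stood at 1.86 to 3.22 TPM in N2 and 10.3 to 15.4 TPM in QX1211, and col-107 at 1.46 to 2.25 TPM in N2 and 10.8 to 12.6 TPM in QX1211. In both genes the QX1211 libraries lay above all those of N2.

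Among the lower members, col-42 (V:18638484-18639591, + strand) stood at 1029, 828 and 806 TPM in N2 and at 376, 344 and 344 TPM in ECA701, a log2 difference of -1.39 ± 0.10 (SE; edgeR's quasi-likelihood test, Benjamini-Hochberg adjusted p = 6.06e-15). col-98 and col-103 were lower in ECA701 by log2 differences of -1.48 and -1.15. None of these ECA701 libraries overlapped with N2. col-158 stood at 3.46 to 3.76 TPM in N2, at 0.527 to 0.579 TPM in QX1211 and at 6.66 to 7.43 TPM in EG4348, and was called lower in 6 strains and higher in EG4348.

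col-139, col-81 and col-129 were also far lower in ECA701. col-139 (V:4652863-4653971, - strand) stood at 408.6, 348.8 and 368.1 TPM in N2, at 109.4, 102.5 and 101.6 TPM in ECA701 (log2 difference -1.91 ± 0.09, SE) and at 461 to 529 TPM in ECA722. The differences of col-81 and col-129 in ECA701 were -2.0 and -1.78. The neighbours col-178 and col-179 exchanged rank in CB4856: col-178 stood at 1389, 1199 and 1233 TPM there against 2406 to 2784 TPM in N2, and col-179 at 1876, 1527 and 1640 TPM against 567 to 655 TPM. The pair shares 17.2% and 38.7% of its fragments, and with allele-aware totals the log2 differences were still -0.83 and 1.53.

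Near-identical members were also read as sums. The sum of col-92, col-93 and col-94 was lower than in N2 in ECA722 (log2 difference -1.11), ECA701 (-0.87), EG4348 (-0.73) and XZ1516 (-0.46). The sum of col-146 and col-147 was higher in CB4856 (1.96) and ECA722 (2.57) and lower in EG4348 (-0.68). The sum of col-167 to col-170 was higher in XZ1516 (1.34) and lower in EG4348 (-0.98). The sum of col-10, which has been studied in longevity, and col-144 was higher in CB4856 (0.91), ECA722 (0.92), QX1211 (0.74) and DL238 (0.45). The sum of col-12 and col-13, near-identical neighbours expressed at molts, was higher in CB4856 (1.06) and QX1211 (1.03). In ECA701 it stood at 41.2, 20.0 and 19.8 CPM (counts per 1e6) against 18.0, 19.7 and 20.6 CPM in N2, and its called difference of 0.48 became 0.02, not called, without replicate 1.

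col-99, the transmembrane collagen, was higher in QX1211 (1.26), DL238 (1.13) and ECA722 (0.77), from 2.63 to 4.08 TPM in QX1211 against 0.808 to 2.18 TPM in N2. col-63 was higher in QX1211 by 3.06, at 3.39 to 6.32 TPM against 0.167 to 1.12 TPM in N2. col-34 was lower in EG4348 (-0.53), DL238 (-0.55) and CB4856 (-0.65). The N2 libraries of col-63 and col-99 spread widely, and the col-99 ranges of QX1211 and N2 did not overlap.

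In the F1 animals col members were lower than the mid-parent value, the mean of both parents on the log scale, far more often than they were higher. Every F1 group came from mated mothers with a fog-2 mutation and every parental group from selfing. Hybrid state cannot be told apart from these conditions. Lower and higher counts were 74 and 3 in the EG4348 cross (backgrounds 13% and 14.1%), 76 and 7 in CB4856 (16.3% and 18.3%), 92 and 5 in QX1211 (18.4% and 23.9%), 58 and 8 in DL238 (12.5% and 14.5%), 31 and 12 in XZ1516 (16.1% and 22.1%), 82 and 6 in ECA701 (22.8% and 24.5%) and 69 and 9 in ECA722 (15.5% and 18.4%). The median log2 departure of the 125 members was -0.50, -1.09, -0.92, -0.67, -0.23, -0.59 and -0.71 in the same order, while that of all genes lay between -0.08 and 0.01. With 1 library left out, 31 became 15 without XZ1516 F1 replicate 2, 82 became 54 without ECA701 F1 replicate 2, and 66 without ECA701 parental replicate 1. Without that parental library the median departure in the ECA701 cross was -0.47. The deposited kallisto tables of the F1 carry the transcript lengths of the wild parent alone, and with allele-aware totals 73 of 77, 81 of 83, 95 of 97, 65 of 66, 38 of 43, 86 of 88 and 75 of 78 calls kept their direction and stayed called.

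The 3 F1 libraries of a cross all lay below all 6 parental libraries in 54, 53, 66, 46, 16, 32 and 49 members for the crosses in the same order (backgrounds 8.8%, 9.22%, 10.2%, 7.98%, 8.04%, 11.5% and 9.65%). They all lay above in 2, 4, 1, 4, 4, 2 and 2 members (5.59%, 9.48%, 10.8%, 5.41%, 6.63%, 11.2% and 7.41%). In each of the 7 crosses more members lay below the parental range than above it. The 7 crosses share the N2 parental libraries.

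The members between 1 and 10 TPM were lower in 34 to 40 of 47 in every cross but XZ1516, where 9 of 47 were lower, with medians of -1.32 to -2.24 against -0.41. The summed level of the members under 10 TPM was 64.1 to 87.9 TPM in the F1 libraries of the 6 other crosses and 92.7 to 155.5 TPM in those of XZ1516, against 139.9 to 173.3 TPM in N2. The XZ1516 F1 group was thus the single F1 group whose range met that of N2. The 15 members over 1000 TPM were all lower in the QX1211 and ECA701 crosses, while 0 of 15 were lower in the ECA722 cross and 1 in the DL238 cross. Without ECA701 parental replicate 1, 10 of the 15 strongest and 29 of the 47 members between 1 and 10 TPM were lower in the ECA701 cross.

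Called lower in all 7 crosses were col-10, col-39, col-42, col-81, col-91, col-98, col-107, col-116, col-118, col-129, col-139, col-142, col-145, col-155, col-161 and col-166 (16 of 125, background 3.36%). Without ECA701 parental replicate 1 the count was 20 (background 3.37%), and col-116 and col-155 were not among them. The largest mean departures among them were those of col-91, col-161 and col-145. col-91 (III:8262355-8263664, - strand) stood at 0.0437 to 7.13 TPM in the parental libraries and at 0 to 0.360 TPM in the F1 libraries. Its log2 departures ran from -2.27 in the XZ1516 cross to -7.23 in the ECA701 cross, and the parental libraries of ECA701 spread from 0.311 to 7.13 TPM. The departures of col-161 ran from -1.65 to -6.61 and those of col-145 from -2.35 to -4.53. Of 17 alternatives, the calls of the XZ1516 cross were lost in 5 for col-91, 5 for col-161 and 3 for col-145, while those of these 3 genes in the other 6 crosses were lost in 0. Without XZ1516 parental replicate 2 the departure of col-91 was -1.30 (edgeR's quasi-likelihood test, Benjamini-Hochberg adjusted p = 0.251). The count of 16 rests on these calls too. These 3 genes are weakly expressed.

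Stronger members were lower as well. col-139 stood at 74.0 to 212.8 TPM in the F1 libraries, and its log2 departures were -1.10, -1.56, -1.23, -0.80, -1.29, -1.12 and -1.64 in the order of strains above, each with a standard error near 0.08 (edgeR's quasi-likelihood test, Benjamini-Hochberg adjusted p = 5.68e-18 in the ECA722 cross). In the ECA722 cross the F1 libraries, at 128 to 155 TPM, lay below those of N2, at 349 to 409 TPM, and of ECA722. col-81 departed by -0.93 to -1.81 and col-129 by -0.81 to -1.51. col-142 departed by -0.23 to -0.54.

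col-39, which was high in several wild parents, stood at 8.25, 10.7 and 8.54 TPM in the ECA722 F1 libraries, just above the N2 range, and departed by -1.42 ± 0.12 (SE; edgeR's quasi-likelihood test, Benjamini-Hochberg adjusted p = 9.18e-12). col-120, which like col-10 has been studied in longevity, stood at 0.104 to 0.653 TPM in the F1 libraries and was lower in 6 crosses. The sum of col-17 and col-73 departed by -3.93 to -6.71 in 6 crosses, while in the XZ1516 cross it departed by 0.50 and was not called. The sum of col-10 and col-144 was lower in all 7 crosses, by -0.36 to -0.90.

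A single member, col-95 (III:11703994-11705091, + strand), was higher in all 7 crosses (1 of 125, background 5.25%). It stood at 138.8, 121.9 and 121.9 TPM in N2, at 67.4, 65.1 and 64.4 TPM in EG4348 and at 165.6, 197.2 and 171.2 TPM in their F1. In the CB4856 cross the wild parent stood at 168.4 to 180.2 TPM and the F1 at 321.7, 347.7 and 354.9 TPM. In both crosses the F1 libraries lay above both parents. The log2 departures were 0.95, 1.19, 0.47, 1.06, 0.78, 0.32 and 0.78, each with a standard error near 0.05 (edgeR's quasi-likelihood test, Benjamini-Hochberg adjusted p = 7.79e-20 in the CB4856 cross). Its neighbour col-96 departed by -0.15 to 0.16. col-158, low in 6 wild strains, was higher than the mid-parent in 6 crosses, by 0.85 to 1.55, and its departure of 0.39 in the EG4348 cross was not called.

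Crosses differed in how far members departed. The 7 departures differed in 69 of the 125 members (edgeR's quasi-likelihood F test of the difference, Benjamini-Hochberg adjusted p under 0.05), against 23.6% of all genes. For col-19 the ECA722 cross stood at 1375, 1646 and 1410 TPM, a departure of 1.13 ± 0.06 (SE), while in the EG4348, CB4856, QX1211, XZ1516 and ECA701 crosses it was lower by -0.23 to -0.39. The ECA722 F1 libraries lay between the ranges of both parents on the TPM scale. For col-135 the ECA701 cross, at 23.1, 21.6 and 23.5 TPM, departed by 1.36 ± 0.07 (SE). Its F1 libraries also lay between the ranges of both parents. The mid-parent value is a mean of logs, so where the parents differ widely it lies below their plain mean. An F1 at the plain mean of its parents would thus also depart upward.

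Alleles could be compared within the F1 libraries where fragments told the N2 and the wild copy apart, with a mean of at least 10 such fragments a library. This held for 73 of the 156 members in at least 1 cross and for 243 combinations of a member and a cross. The deposited allele tables of the EG4348 libraries name the wild allele EG4349, and it was read as EG4348, the strain of the sample labels. Because both alleles sit in the same nuclei, this comparison asks how much of a parental difference stays with the allele, and the parental difference minus the allelic one is the trans difference. The wild allele was called higher and lower in 3 and 4 of 18 members in the EG4348 cross, 2 and 0 of 18 in CB4856, 7 and 5 of 44 in QX1211, 1 and 1 of 23 in DL238, 22 and 9 of 57 in XZ1516, 8 and 9 of 42 in ECA701 and 8 and 7 of 41 in ECA722. Backgrounds of either direction were 8.43%, 7.82%, 11.4%, 7.41%, 17.3%, 13.8% and 9.76% of the genes tested in each cross. The 12 of QX1211 became 7 and 6 without its F1 replicates 1 and 3, the 31 of XZ1516 became 14 and 17 without replicates 1 and 2, the 17 of ECA701 became 7 and 8 without replicates 1 and 2, the 15 of ECA722 became 9 without replicate 2, and the 2 of CB4856 became 1 when any single F1 replicate was left out.

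A trans difference was called in 5, 4, 17, 5, 24, 22 and 19 members in the same order (backgrounds 13.7%, 9.12%, 14.1%, 10.9%, 18.2%, 22.3% and 15.2%). The 5 of DL238 became 1 without DL238 parental replicate 2 and 3 without F1 replicate 2 or 3, and the 4 of CB4856 became 2 without N2 replicate 3, CB4856 parental replicate 1 or F1 replicate 3. Of the 243 combinations, 110 had neither call, 47 had a trans difference alone, 37 an allelic difference alone and 49 both. Of the 86 with an allelic call, the parents differed in the same direction in 54, in the opposite direction in 16, and were not called in 16. In a further 87 the parents differed and the alleles were not called. Members that share at most 10% of their fragments gave 185 combinations, of which 60 had an allelic call. The parents differed in the same direction in 40 of these, in the opposite direction in 9, and were not called in 11. In 71 of the 185 the parents differed and the alleles were not called. Such splits were not computed over all genes.

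**Figure D5:**
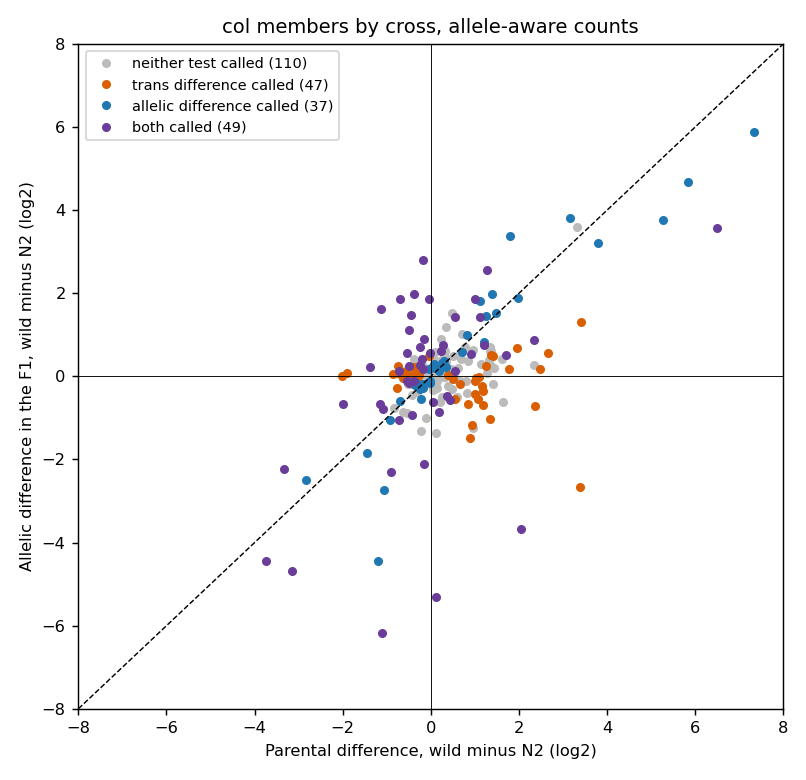
Allelic log2 difference (wild minus N2, in the F1) against the parental log2 difference from allele-aware totals, for 243 combinations of a col member and a cross, coloured by which tests were called. Points on the diagonal have equal allelic and parental differences, and the 47 points with a trans difference alone lie near an allelic difference of 0.

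For col-19 the low level of ECA722 stayed with the allele. The ECA722 copy gave 3.79%, 3.79% and 3.70% of the estimated allele counts of col-19 in the 3 F1 libraries, and later shares are of such counts. A mean of 23073 allele-specific fragments a library was counted. The allelic log2 difference of col-19 was -4.68 ± 0.03 (SE; edgeR's quasi-likelihood test, Benjamini-Hochberg adjusted p = 1.77e-07). The parental difference was -3.15, and the trans difference of 1.52 ± 0.09 was called as well. In the other 6 crosses the wild copy of col-19 gave 47.3% to 54%, and none of those allelic tests was called.

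The ECA701 copy of col-135 gave 4.98%, 5.21% and 2.91% of the estimated allele counts, an allelic log2 difference of -4.45 ± 0.20 (SE), beside a parental difference of -3.74. In the EG4348 cross its wild copy gave 57.1% to 60.8%, and the allelic difference of 0.50 was smaller than the parental difference of 1.72, with a called trans difference of 1.21 ± 0.09 (SE). The EG4348 copy of col-143 gave 17.3% to 18.3%, an allelic difference of -2.22.

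The wild copy of col-142 was called higher in all 6 crosses in which it could be tested. It gave 72.7% to 75.5% in EG4348, 60.7% to 67.1% in CB4856, 78.4% to 78.9% in QX1211, 72.6% to 73.3% in XZ1516, 76.9% to 79.4% in ECA701 and 78.0% to 79.0% in ECA722. The allelic log2 differences were 1.52, 0.84, 1.88, 1.44, 1.85 and 1.86. In EG4348 and QX1211 the trans differences of -0.05 and 0.09 were not called. In ECA701 the parental difference with these totals was -0.04 and the trans difference -1.89 ± 0.10 (SE; edgeR's quasi-likelihood test, Benjamini-Hochberg adjusted p = 6.50e-07).

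The 3 strains with col-40 RNA also held it on the wild copy in their F1. Shares of the estimated allele counts were 90.7% to 100% in QX1211, 81.7% to 95.7% in XZ1516 and 86.2% to 95.9% in ECA722. The means of allele-specific fragments a library were 42.7, 76.0 and 63.3 in the same order. The allelic log2 differences were 4.67, 3.57 and 3.77. The ECA722 copy of col-165 gave 97.8% to 100%, beside a mean of 39.3 allele-specific fragments. PCR copies carried no molecular identifiers, so these shares are of estimated fragment counts and not of molecules.

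Other allelic calls ran both ways. For col-95 the allelic difference was -1.04 in EG4348, -1.05 in ECA701, 0.75 in DL238, 0.61 in XZ1516 and 0.53 in ECA722, and in QX1211 it was not called while a trans difference of 1.06 was. The wild copies of col-139 in QX1211 and XZ1516 gave 66.8% to 69.9% and 72.1% to 75.3%, with trans differences of -1.62 and -1.94. In ECA701 col-139, col-81, col-42 and col-80 had allelic differences of at most 0.22 in size, called for col-42 and col-80, beside trans differences of -1.98, -2.01, -1.61 and -0.85. The low copy of col-133 in ECA701 had an allelic difference of -4.44, while its parental libraries spread from 0.427 to 10.6 TPM. The large allelic differences of col-93 in QX1211 (-5.32) and ECA722 (-6.18) and of col-154 in XZ1516 (-3.68) come from genes that share most of their fragments with a copy and are uncertain.

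The 20 body-shape collagens, which carry other names than col, were all tested. Against N2, higher and lower members were 17 and 0 in QX1211, 14 and 0 in both CB4856 and ECA701, 14 and 1 in ECA722, 13 and 0 in DL238, 8 and 1 in XZ1516 and 5 and 3 in EG4348. Of all genes, 18.2% to 27.7% were higher and 13.4% to 24.8% lower, by strain as given above. Without replicate 1 the ECA701 counts were 13 and 1. The median log2 difference of the list was 2.79 in QX1211, 0.43 in EG4348 and 0.75 to 1.73 in the other strains. rol-6 was higher in all 7 strains, by 2.22 to 4.65, and bli-2, a collagen of the struts of the adult cuticle, in 6, by 3.07 to 5.61. Against the mid-parent none was higher and 8 to 14 were lower in the 6 other crosses, while in the XZ1516 cross 8 were higher and 1 was lower. Without ECA701 parental replicate 1 the lower count of the ECA701 cross was 11 in place of 13. dpy-5 departed by -3.46 to -7.58 in those 6 crosses and by 0.28 in XZ1516, where it was not called. For these and the further lists, the share of all genes was 14.1% to 24.5% higher and 12.5% to 22.8% lower in a cross.

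Summed, the body-shape collagens stood at 29.6 to 45.3 TPM in N2, 31.7 to 199.4 TPM in the wild parental libraries and 15.1 to 53.8 TPM in the F1 libraries. In the XZ1516 F1 the sum was 31.0 to 53.8 TPM. Of the 21 genes of molting and the apical matrix, 20 were tested. Against N2, 12 of them were higher and 1 lower in QX1211, 11 and 1 in DL238, 7 and 4 in ECA701. The counts were 5 and 1 for CB4856, 4 and 2 for ECA722, 2 and 3 for XZ1516, 2 and 6 for EG4348. Against the mid-parent 11 were lower in the CB4856, DL238 and ECA701 crosses, 7 in QX1211, 6 in ECA722 and 4 in EG4348. The XZ1516 cross had 3 lower and 3 higher. The QX1211 cross had 1 higher, and the remaining crosses had 0 higher. fbn-1, a fibrillin-like matrix protein, was lower in all 7 crosses, by -1.02 to -2.55. The part of these genes in the col results was not tested.

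Of 17 tested genes of collagen processing and cross-linking, 5, 9, 8, 5, 6, 7 and 8 were higher in the wild strains in the order above and 0, 0, 0, 1, 1, 5 and 0 were lower, beside the same backgrounds of 18.2% to 27.7% and 13.4% to 24.8%. Without ECA701 parental replicate 1 the ECA701 counts were 6 and 5. In the crosses, in the same order, 4, 5, 6, 4, 3, 4 and 3 were higher than the mid-parent. Lower were 7, 6, 6, 4, 5, 6 and 9. dpy-18, the main prolyl 4-hydroxylase subunit of the cuticle, was higher in ECA722 by 2.01 and departed in that cross by -1.0. phy-2, the partner subunit, was lower in all 7 crosses by -0.31 to -0.50, and pdi-1, a protein disulfide isomerase, was higher in all 7 crosses by 0.14 to 0.28. let-268, the lysyl hydroxylase, was lower in all 7 by -0.23 to -0.43.

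Of 15 regulators, in the order above, 4, 4, 5, 8, 7, 7 and 7 were higher than N2. In the same order 3, 0, 2, 0, 1, 2 and 0 were lower. Against the mid-parent, 4, 5, 3, 3, 3, 4 and 5 were higher and 2, 4, 3, 5, 4, 6 and 7 were lower. Backgrounds were those of the lists above. Among them nhr-25, a nuclear receptor of molting and the hypodermis, was lower in all 7 crosses by -0.82 to -2.18. The regulator nhr-23, which is required for molting, was higher in all 7 by 0.11 to 0.22. lin-29, the factor that drives the larval to adult switch and activates col-19, was higher in CB4856 (0.44), QX1211 (0.57) and ECA722 (0.79). The basement membrane collagens emb-9 and let-2, the 2 type IV chains, were higher than N2 in 7 and 6 strains, by 0.32 to 0.67 and 0.40 to 0.78, and no F1 departure of either was called. cle-1, which completes this list of 3 genes, was lower than the mid-parent in every cross but DL238. The list summed to 94.6 to 176.7 TPM in N2, a wide spread.

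Markers of other tissues were read beside these results. The hypodermis list, 5 of 6 genes measured, summed to 72.2 to 79.4 TPM in N2, 66.7 to 96.1 TPM in the wild parental and 70.2 to 79.4 TPM in the F1 libraries. In a cross 1 to 4 of its genes were lower and 0 or 1 higher. The embryo list summed to 135.2 to 143.6, 130.2 to 149.7 and 136.6 to 150.4 TPM, with 0 to 2 of 6 tested genes lower and 0 or 1 higher in a cross. Of 5 oocyte markers, 4 or 5 were higher than the mid-parent in each cross. Of 6 sperm markers, 5 were higher in the XZ1516 cross, 3 in EG4348, 2 in CB4856 and 1 in ECA722. In ECA701 2 sperm markers were lower. Of 6 intestine markers, in the order of strains above, 0, 3, 3, 4, 0, 0 and 3 were higher. In the same order 3, 2, 2, 2, 2, 2 and 1 were lower. Of 5 neuron markers, 1 was higher and 3 were lower in ECA701. In QX1211 and XZ1516 2 neuron markers were lower, and in EG4348 1. Body muscle markers summed to 138.4, 163.6 and 391.3 TPM in N2 from the lowest to the highest library. Their part in the col results was not tested.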

How the data were processed

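RNA was sequenced from 45 libraries of whole adults (3 for each of 15 groups). The deposited files hold, per the file headers, estimated counts, effective lengths and TPM per transcript from kallisto, estimated counts per gene and allele (emase-zero, per the file names), and fragment counts of Salmon equivalence classes. The submitters' processing notes name kallisto, Salmon 1.4, Trimmomatic 0.39, FastQC, DESeq2 1.42.0 and ce11, with no role or order, and whether counting used strand is not given in the sources used here. Transcript estimated counts deposited by the authors were summed per gene with the Ensembl WBcel235 annotation and rounded, TPM values deposited by the authors were summed per gene, and 0 columns were left unassigned. The files give fragment counts without molecular identifiers. Standard errors (SE) of log2 differences are the size of the difference over the square root of its F statistic. They thus rest on the fitted spread between libraries.

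One edgeR 4.0.16 quasi-likelihood fit (R 4.3.3, TMM scaling, filterByExpr, 15 group coefficients, 30 residual degrees of freedom) gave all tests of totals, with Benjamini-Hochberg adjustment over 16444 genes and a threshold of 0.05. Allelic tests paired both alleles within an F1 library and needed a mean of at least 10 fragments specific to an allele of 1 gene. Tests were checked on simulated data. Fragments shared between genes were counted from the equivalence classes. Alternatives were DESeq2 1.42.0, other size factors, no filter, allele-aware totals, fragments of 1 gene only, only the groups compared, a replicate block, a minimum of 30 allelic fragments, allele-specific fragments only, left-out libraries and, added after the data were seen, near-identical members summed and the ECA701 values without its parental replicate 1.

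Members named are the 12 of highest mean TPM, per strain the 2 highest and 2 lowest called differences against N2 (mean CPM of at least 1 in a group, no overlap between groups), members called in 1 direction in at least 6 of 7 strains, the 3 largest mean departures each way among those called in all 7 crosses, per cross the 2 largest allelic differences, and members with a known role. col-81, col-129, col-139, col-96, col-179, the other members lower in all 7 crosses and sums of copies were chosen after their values were seen. The members and the gene lists were chosen with earlier results of these data known. No sequences of these genes were used here.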

Additional observations from a re-analysis of the deposited data

Results flagged for a closer look

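For 9 members the departures of the F1 from the mid-parent value were called in opposite directions in different crosses, and a test of the difference among the 7 departures was called (edgeR's quasi-likelihood F test, Benjamini-Hochberg adjusted p given for each). col-19 was higher in the ECA722 cross and lower in 5 others (adjusted p = 1.01e-17). Its ECA722 F1 libraries lay between the ranges of both parents. col-92, which shares 99.9% of its fragments with other genes, was higher in 4 crosses and lower in CB4856 (adjusted p = 4.41e-24). These directions do not hold with allele-aware totals, where col-92 was higher in 0 crosses and lower in 3, and its departure in EG4348 went from 3.51 to -0.92 (edgeR's quasi-likelihood test, Benjamini-Hochberg adjusted p = 0.00362). col-169, which shares 69.4%, was higher in the XZ1516 cross and lower in the other 6 (adjusted p = 2.10e-10). The same holds for col-17, which shares 67.9% (adjusted p = 5.37e-10).

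Weakly expressed members moved against the other crosses in XZ1516: col-90 was higher there and lower in 5 crosses (adjusted p = 4.73e-06), and col-41 was higher there and lower in QX1211 (adjusted p = 0.00117). col-117, which shares 99.6% of its fragments, was higher in the XZ1516 and ECA722 crosses and lower in CB4856 (adjusted p = 0.000270). With allele-aware totals it was higher in 0 crosses and lower in 2, with adjusted p = 0.0880 in XZ1516 and 0.458 in ECA722 by edgeR's quasi-likelihood test with Benjamini-Hochberg adjustment, and with fragments of 1 gene only the departures there were -0.19 and -1.30. col-101, one of the 12 strongest members, was higher in CB4856, DL238 and ECA722, by 0.21 to 0.34 on the log2 scale, and lower in QX1211 and ECA701, by -0.19 and -0.18 (adjusted p = 2.58e-05). col-96 was higher in DL238 by 0.16 and lower in ECA701 and ECA722 by -0.15 (adjusted p = 0.00493).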

How the results depend on the processing

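The count of members that differ among the 8 strains, 112, was 107 to 117 with libraries left out and 99 to 115 under the other settings. Counts against N2 and against the mid-parent stayed within 1.5 times their value under every setting run, and only parts of them moved with 1 library, as given beside them. With allele-specific fragments only the allelic counts were 27 in ECA722 (15 in the main test), 25 in QX1211 (12) and 7 in both CB4856 (2) and DL238 (2). With DESeq2 the trans counts were 8 in EG4348 (5) and 7 in CB4856 (4). With a library left out the allelic counts were 1 to 1 in CB4856, 9 to 14 in ECA722, 7 to 14 in ECA701, 14 to 24 in XZ1516 and 6 to 11 in QX1211, and the trans counts 2 to 6 in CB4856 and 1 to 5 in DL238. The causes were not tested, beyond the fewer samples of the left-out settings.

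Of the named log2 differences recomputed, 2139 kept direction and call, 86 lost the call, 10 gained it and 16 changed sign, 14 of them in members that share most fragments with a copy. With allele-aware totals col-92 became 0.66 in EG4348, 0.30 in QX1211, 0.35 in XZ1516 and -0.29 in CB4856, and col-94 became -0.73 in ECA701 and -0.39 in ECA722. With fragments of 1 gene only, col-92 became 0.16 in EG4348 and -0.072 in CB4856, col-94 became -0.80 in ECA722, -0.70 in ECA701, -0.22 in EG4348, -0.19 in XZ1516 and -0.14 in DL238, and col-117 became 0.97 in ECA701. With a library left out, col-39 in EG4348 ran from -0.0075 (without EG4348 parental replicate 3) to 0.15, and col-107 in XZ1516 from -0.24 (without XZ1516 parental replicate 2) to 0.57; neither was called with all libraries.

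The main tests did not use replicate numbers as pairs. Deviations of same-numbered libraries correlated with a mean r of 0.056 (126 of 315 pairs over 0.1), against -0.028 for libraries of other numbers. On average 35 of 45 libraries were closer to their own number, and whether the numbers mark shared batches was not tested. With the number as a block, 111 members differed among the 8 strains, and the trans counts were 13 in QX1211 and 23 in ECA722, against 17 and 19 without it. Depth limits the 69 members under 1 TPM and the allelic tests of members with few distinguishing fragments.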
